A study of Homo sapiens with 8 samples.

Results

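Of the 38667 TAZ peaks called after 72 h of induction, 436 (1.13%) lay on sites that were also called without induction and at 24 and 48 h, and these 436 sites are described here. A site is a peak of the 72 h list whose interval overlaps by at least 1 bp a peak in each of the other 3 lists, and in each of those lists the strongest overlapping peak was followed. The members were therefore chosen by peak calls in all 4 lists, so that being called, and the levels behind the calls, are given below as a description with no test. The followed peaks made up 17.9% of the 2431 peaks without induction, 17.7% of the 2469 at 24 h and 3.71% of the 11767 at 48 h.

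The data come from MCF10A, a non-transformed line of human mammary epithelial cells, transduced with TAZ-4SA, a constitutively active TAZ, under a doxycycline (Dox) switch. Chromatin immunoprecipitation and sequencing (ChIP-seq), which reads the DNA recovered with a protein by an antibody, was done with an antibody to TAZ on cells without Dox and on cells given 0.05 µg/ml Dox for 24, 48 and 72 h. All 4 groups carried the same transgene, and whether the cells were 1 clone is not given in the sources used here. Each group had 1 TAZ library and 1 IgG library (8 in all), whether the IgG libraries entered the peak calling is not given in the sources used here, and there were no replicates, so any difference between times is one between single libraries and covers no spread between cultures. Fold enrichment is the authors' ratio of fragments piled up at a summit to the local background, with 1 fragment added to both, and its 95% intervals below are exact Poisson intervals of the fragment number, which cover counting error only.

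TAZ is a transcriptional co-activator at the end of the Hippo pathway, in which the LATS kinases phosphorylate TAZ and its relative YAP and keep them out of the nucleus. TAZ does not bind DNA itself and is carried to enhancers and promoters mainly by the TEAD factors, often beside AP-1, the dimers of FOS and JUN proteins. MCF10A cells contain endogenous TAZ, which the antibody can precipitate without Dox. At any one site, endogenous TAZ, the induced TAZ and any leak of the switch cannot be told apart in these lists.

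The sequences that carry the pattern are shown first, as 201 bases of hg38 centred on the 72 h summit, plus strand, 5′ to 3′. The TEAD word searched was ACATTCC or GCATTCC and the AP-1 word TGACTCA or TGAGTCA, on both strands, and in the first set and the set of target genes these words are in capitals. The first set holds 4 of the strongest sites at 72 h, each named after the protein-coding gene with the nearest transcription start site (TSS), which have 2 or 3 TEAD words.
NUAK2, chr1:205301489-205301689: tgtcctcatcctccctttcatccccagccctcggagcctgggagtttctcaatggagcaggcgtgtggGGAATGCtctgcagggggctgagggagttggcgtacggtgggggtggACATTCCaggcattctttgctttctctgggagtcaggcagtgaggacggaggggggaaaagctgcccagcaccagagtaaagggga
LAMA5, chr20:62361898-62362098: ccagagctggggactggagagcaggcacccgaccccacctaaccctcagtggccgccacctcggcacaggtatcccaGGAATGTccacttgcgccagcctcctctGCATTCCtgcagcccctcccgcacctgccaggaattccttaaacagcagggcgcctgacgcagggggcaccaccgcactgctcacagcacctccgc
FSCN1, chr7:5591637-5591837: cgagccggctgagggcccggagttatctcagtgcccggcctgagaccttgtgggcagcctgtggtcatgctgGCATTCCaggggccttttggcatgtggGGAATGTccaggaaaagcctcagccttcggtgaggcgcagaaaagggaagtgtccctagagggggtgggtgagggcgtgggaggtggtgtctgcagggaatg
SLC7A5, chr16:87870691-87870891: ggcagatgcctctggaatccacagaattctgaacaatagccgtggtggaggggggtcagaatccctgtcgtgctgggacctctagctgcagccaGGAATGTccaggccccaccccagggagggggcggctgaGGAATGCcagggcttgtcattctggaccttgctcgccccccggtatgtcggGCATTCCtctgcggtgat
The strongest site at which no TEAD word was found within 100 bp of the summit is shown for contrast, with no letters in capitals.
GNA11, chr19:3116363-3116563: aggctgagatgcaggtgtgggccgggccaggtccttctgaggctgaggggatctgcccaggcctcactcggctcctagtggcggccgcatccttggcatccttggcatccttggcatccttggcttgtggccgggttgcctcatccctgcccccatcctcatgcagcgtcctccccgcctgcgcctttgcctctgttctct
Another set holds sites at the promoters of genes known as YAP/TAZ targets, shown for their single or paired TEAD words and, at AXL, an AP-1 word beside the TEAD word.
CCN1, chr1:85580570-85580770: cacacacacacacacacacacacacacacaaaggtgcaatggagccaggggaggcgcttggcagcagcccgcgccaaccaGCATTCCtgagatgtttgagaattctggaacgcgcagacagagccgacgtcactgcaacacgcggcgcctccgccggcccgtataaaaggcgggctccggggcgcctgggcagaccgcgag
AMOTL2, chr3:134374413-134374613: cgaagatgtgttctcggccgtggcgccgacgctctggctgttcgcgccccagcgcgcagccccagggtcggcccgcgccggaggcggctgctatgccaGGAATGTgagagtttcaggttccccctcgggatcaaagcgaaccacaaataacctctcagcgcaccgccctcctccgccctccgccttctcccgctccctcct
AXL, chr19:41226105-41226305: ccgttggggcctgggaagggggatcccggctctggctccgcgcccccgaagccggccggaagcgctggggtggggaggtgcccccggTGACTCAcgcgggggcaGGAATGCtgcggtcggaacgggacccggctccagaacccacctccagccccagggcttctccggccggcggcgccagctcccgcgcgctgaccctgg
CCDC80, chr3:112647220-112647420: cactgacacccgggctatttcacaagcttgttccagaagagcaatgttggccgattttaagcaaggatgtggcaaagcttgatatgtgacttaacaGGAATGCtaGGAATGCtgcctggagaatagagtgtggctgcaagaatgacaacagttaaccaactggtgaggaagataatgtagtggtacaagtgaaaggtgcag
The last set shows promoters at which fold enrichment was lower at 72 h than without Dox. No TEAD word was found in them, and the capitals mark the NRF1 word GCGCATGC at NDUFS7 and the word CTACAACTC, chosen after the values were seen, at RTTN and PUS10.
NDUFS7, chr19:1383728-1383928: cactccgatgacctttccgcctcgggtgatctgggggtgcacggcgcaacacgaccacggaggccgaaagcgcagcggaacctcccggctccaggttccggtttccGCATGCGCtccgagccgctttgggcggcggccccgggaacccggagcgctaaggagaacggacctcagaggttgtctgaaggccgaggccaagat
RTTN, chr18:70205883-70206083: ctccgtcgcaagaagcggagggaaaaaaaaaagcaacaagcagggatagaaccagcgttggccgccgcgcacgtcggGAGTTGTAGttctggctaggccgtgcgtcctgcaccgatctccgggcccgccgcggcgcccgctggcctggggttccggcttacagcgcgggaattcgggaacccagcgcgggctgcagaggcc
PUS10, chr2:61017375-61017575: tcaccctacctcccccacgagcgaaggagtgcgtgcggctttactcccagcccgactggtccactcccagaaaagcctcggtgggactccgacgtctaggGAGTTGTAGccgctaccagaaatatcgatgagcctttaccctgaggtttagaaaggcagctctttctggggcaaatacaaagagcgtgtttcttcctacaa
RBBP5, chr1:205122183-205122383: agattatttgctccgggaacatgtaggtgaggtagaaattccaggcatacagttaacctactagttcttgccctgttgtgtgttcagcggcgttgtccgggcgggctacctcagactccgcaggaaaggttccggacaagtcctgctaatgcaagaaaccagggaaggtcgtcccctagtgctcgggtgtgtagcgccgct

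Fold enrichment at the 436 sites had a median of 6.08 without Dox, 8.80 after 24 h, 13.3 after 48 h and 33.6 after 72 h. The fragments behind these values were few at first, with a median of 22 fragments over the summit without Dox, 31 after 24 h, 91 after 48 h and 176 after 72 h. The lists were not equally deep, since their genome-wide background coverage was 1.49 fragments without Dox, 1.42 after 24 h, 2.84 after 48 h and 2.01 after 72 h. Within the 38667 peaks at 72 h the median site stood at the 98.2th percentile of fold enrichment. Within the 2431 peaks without Dox it stood at the 59.9th percentile. Of the members, 392 were in the top 10% of the 72 h list. In the list without Dox, 17 were in the top 10% and 156 were below its median. Percentiles depend on how many weaker peaks a list holds, so those of lists of unlike length are not on one scale. No change of rank is read from them. Members made up 61 of the 100 strongest peaks at 72 h.

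Between 72 h and no Dox the median ratio of fold enrichment was 5.20 (95% interval over sites 4.91 to 5.45, quartiles 3.81 and 7.06). The ratio was at least 2 at 419 sites (96.1%), where 47.5% of all 2172 peaks without Dox that had a partner at 72 h, members included, passed the same fold. The ratio was 0.5 or less at 4 sites, where 4.28% of the 2172 matched peaks fell that far. Because a site had to be called at 24 and 48 h as well, these counts are set by the choice of members and are not a result about them. At 422 of the 436 sites the counting interval at 72 h lay wholly above the one without Dox, and at 6 it lay wholly below.

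The steps between successive times were unequal. Between 24 h and no Dox the median ratio was 1.44 (1.36 to 1.51), and 96 sites (22%) were at least 2-fold higher at 24 h, where 19.3% of the 488 matched peaks were. At 7 sites it was 0.5 or less, where 6.76% of the matched peaks were. Between 24 and 48 h the median ratio was 1.41 (1.32 to 1.49), with 75 sites (17.2%) at least 2-fold higher at 48 h against 19.1% of 2280 matched peaks. The last step, between 48 and 72 h, had a median ratio of 2.54 (2.39 to 2.63), and 305 sites (70.0%) were at least 2-fold higher at 72 h, where 45.9% of 11219 matched peaks were. These shares are printed beside the members' counts as the level of the lists, and nothing is read from them because the members were chosen on the same calls.

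**Figure D1:**
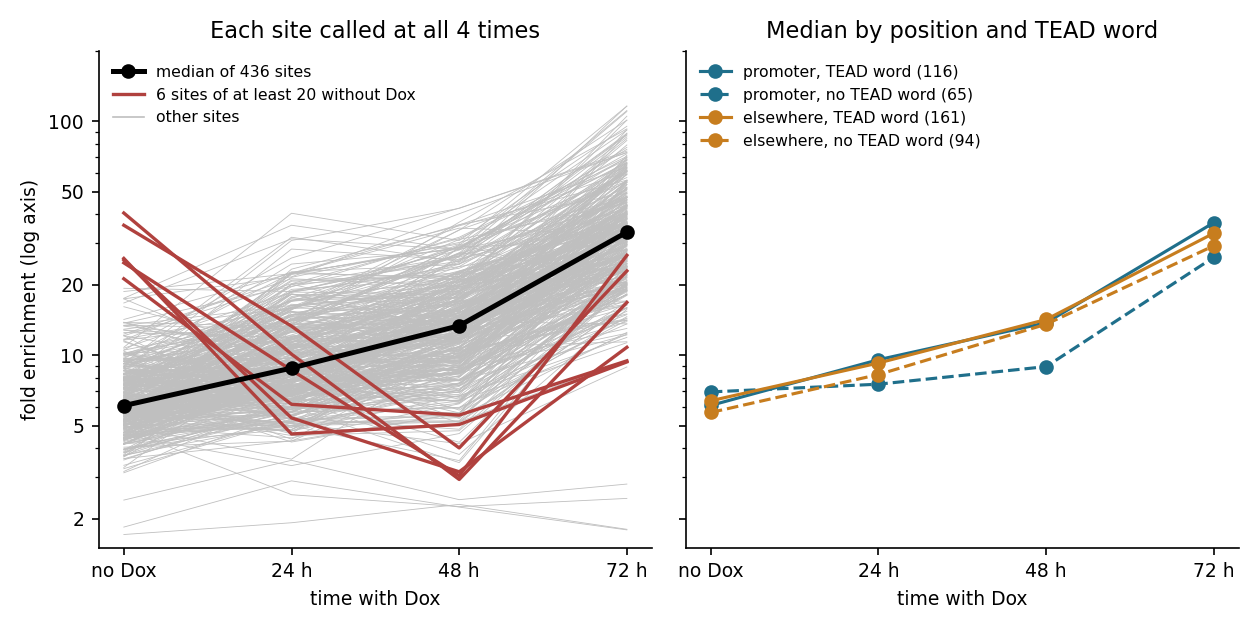
Fold enrichment (log axis) without Dox and at 24, 48 and 72 h. Left: 1 line per site, the median of the 436 sites in black (6.08, 8.80, 13.3 and 33.6) and the 6 sites of at least 20 without Dox in red. Right: medians of promoter sites and of sites elsewhere, with and without a TEAD word. The promoter sites without a TEAD word stay nearly level up to 48 h (6.96, 7.51 and 8.93) and reach 26.2 at 72 h.

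The order of the 4 values was the same at most sites, although few of the single steps exceeded the counting error. The order no Dox, 24 h, 48 h and 72 h from lowest to highest was seen at 281 sites (64.4%, exact 95% interval 59.8 to 68.9%). The counting interval at 24 h lay wholly above the one without Dox at 95 sites and wholly below it at 9, that at 48 h above the one at 24 h at 133 and below it at 6, and that at 72 h above the one at 48 h at 385 and below it at 1. At 22 sites all 3 steps were upward with intervals apart. Fold enrichment was highest after 72 h at 420 sites, after 48 h at 8, after 24 h at 2 and without Dox at 6. At 91 sites (20.9%, 17.2 to 25%) the value at 24 or 48 h was below both the value without Dox and the value at 72 h. Of these 91, 52.7% were promoters and 49.5% had a TEAD word, against 38.6% and 67.2% of the other 345 sites. At 12 sites the dip exceeded the counting error, with the interval at 24 or 48 h wholly below both of the others.

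By the order of the values alone, a dip at 24 or 48 h was most frequent at promoters without a TEAD word. There it was seen at 43.1% of 65 sites (30.8 to 56.0%), against 17.2% of the 116 promoters with a TEAD word, 16.1% of the 155 intronic and intergenic (distal) sites with the word and 18.9% of the 90 distal sites without it. Of the 12 dips beyond counting error, 9 were at promoters without a TEAD word, 3 at promoters with one and 0 at distal sites. Median fold enrichment at those 65 promoters was 6.96 without Dox, 7.51 after 24 h, 8.93 after 48 h and 26.2 after 72 h. At the 116 promoters with a TEAD word it was 6.09, 9.56, 13.8 and 36.8 at the same times. GC content went with this, since the 100 sites of at least 60% GC had a median ratio of 3.71 between 72 and 48 h and a dip at 33.0% of sites, against 2.30 and 17.3% at the 336 sites of lower GC. A dip is by its definition a value below the one without Dox. At the 91 sites with a dip the median without Dox was 8.33, against 5.75 at the other 345. The parts of GC content and of the level without Dox in these courses were not tested.

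Most summits stayed close to one another. Relative to the 72 h summit, the followed summit was displaced by a median of 37 bp without Dox, 21 bp at 24 h and 17 bp at 48 h. It lay within 50 bp at 261 sites (59.9%) without Dox, at 330 (75.7%) at 24 h and at 358 (82.1%) at 48 h. It was over 500 bp away at 19 sites without Dox (up to 3478 bp), 8 at 24 h and 8 at 48 h. Among sites named below, the shift without Dox was 757 bp at KRT7, -519 bp at MUC1 and -732 bp at 1 ASAP1 site. At the EPHA2 promoter it was -1322 bp at 48 h, and the values there join separate summits. The median width of the followed peaks was 600 bp (no Dox), 466 bp (24 h), 948 bp (48 h) and 1620 bp (72 h). More than 1 peak of the other list fell into the 72 h interval at 13 sites without Dox, 11 at 24 h and 24 at 48 h. The smallest overlap of a followed peak, at a site near ASAP1, was 296 bp, and the nearest peak that failed the rule for want of an overlap without Dox was 913 bp away (512 bp for want of one at 24 h and 1413 bp at 48 h). With a stricter overlap of at least 50% of both intervals, 13 sites were left, 10 of them at least 2-fold higher at 72 h than without Dox.

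Position and sequence were not used to choose the sites and can be compared. The 72 h summit lay within 3 kb of an annotated TSS, and was called a promoter, at 181 sites (41.5%, 36.8 to 46.3%). It lay in an intron at 137 sites (31.4%), in intergenic sequence at 108 (24.8%) and in an exon at 9 (2.06%), and 1 site was on an alternate sequence for which no annotation was used. Within 1 kb of a TSS lay 106 sites (24.3%), and 10 were over 100 kb from any TSS. The nearest TSS was that of a gene not annotated as protein-coding at 197 sites, and 60 sites had no protein-coding TSS within 100 kb. Within 100 kb the sites were assigned to 352 protein-coding genes, 20 of them with 2 or more sites.

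A TEAD word was found within 100 bp of the 72 h summit at 277 sites (63.5%, 58.8 to 68.1%), against 6.31% of windows of the same length 1000 bp to either side and 27.7% of all 38667 peaks at 72 h. The word was at 64.1% of the 181 promoters and 63.3% of the 245 distal sites. An AP-1 word was found at 80 sites (18.3%, 14.8 to 22.3%), against 4.13% of the outer windows and 16.0% of all 72 h peaks, and 45 sites had both words. Within 50 bp of the summit the shares were 51.8% for the TEAD word and 11.5% for the AP-1 word. The nearest TEAD word lay a median of 18.0 bp from the 72 h summit, and the nearest AP-1 word 34.5 bp. Centred on the summit without Dox instead, 52.1% of the sites had a TEAD word, and centred on the summits at 24 and 48 h, 62.4% and 64.7%.

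**Figure D2:**
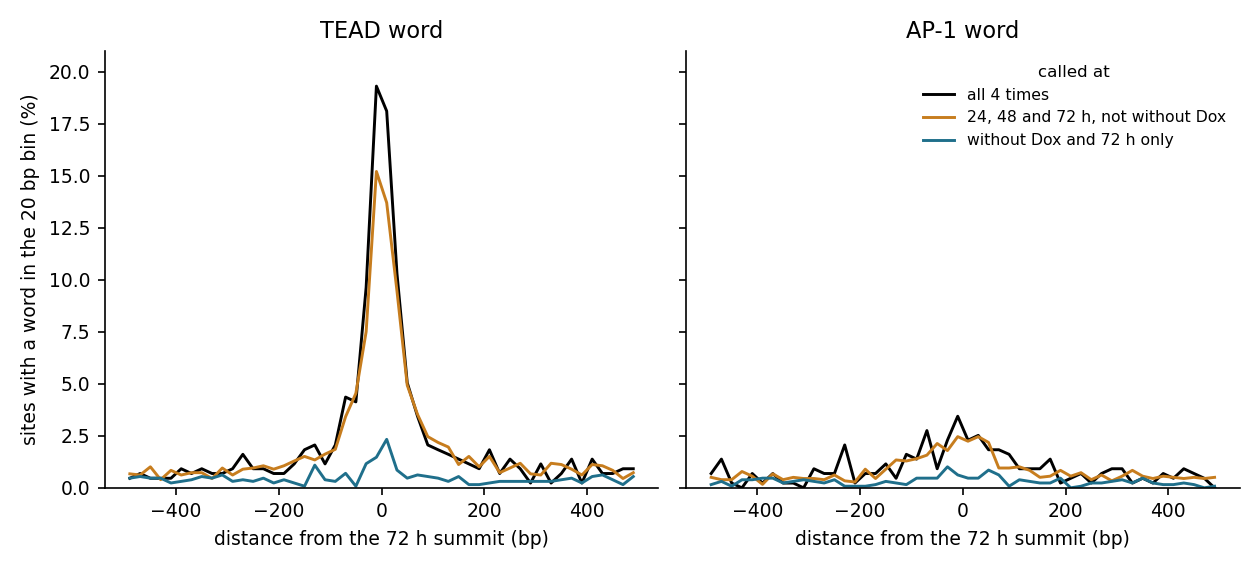
Share of sites with a TEAD word (left) or an AP-1 word (right) in bins of 20 bp, against the distance from the 72 h summit in bp, for sites called at all 4 times, at the 3 Dox times but not without Dox, and without Dox and at 72 h only. The highest bin for the TEAD word held 19.3%, 15.2% and 2.33% of the sites of these classes, and the AP-1 word reached 3.44%, 2.46% and 1.01%.

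Of the other words searched on both strands, the RUNX word TGTGGTT or TGCGGTT was at 44 sites (10.1%), against 3.67% of the outer windows and 8.02% of all 72 h peaks. Words of promoter factors were rare, with the ETS word CCGGAAG at 10 sites (2.29%, against 4.97% of all 72 h peaks), the SP/KLF word GGGGCGGGG at 17 (3.90%, against 5.66%), the NRF1 word at 4 (0.917%, against 1.02%) and the YY1 word ATGGCGGC at 1 (0.229%, against 1.41%). The E-box CACGTG was at 16 sites (3.67%, against 4.18%) and the CREB/ATF word TGACGTCA at 5 (1.15%, against 0.799%). A match of letters is a description of the window and not a mapped binding event.

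The members were set beside 3 other classes of 72 h peaks. The first was 1786 peaks called at 24, 48 and 72 h but not without Dox, the second 1290 peaks called without Dox and at 72 h only, and the third 367 peaks called without Dox, at 48 h and at 72 h. The first and the third differ from the members in a single call, and the second in 2 calls. A TEAD word was found at 63.5% of the members, against 51.1% of the first class, a difference of 12.5 percentage points (Newcombe 95% interval 7.30 to 17.4), and against 8.06% of the second, a difference of 55.5 points (50.6 to 60.1). With the members' windows at their summits without Dox, the difference from the first class was 1.0 points (-4.23 to 6.20), and over the 13 sites of the stricter overlap it was 16.3 points (-11.4 to 35.6). Promoters made up 41.5% of the members, against 23.6% of the first class, 17.9 points more (13 to 23), and 91.3% of the second, a difference of -49.8 points (-54.6 to -44.8). For the AP-1 word the members differed from the first class by 1.61 points (-2.20 to 5.85), an interval that includes 0, from the second by 13.1 points (9.46 to 17.1) and from the third, at 18.3% as well, by 0.0925 points (-5.34 to 5.41). At least 2 TEAD words stood at 14.7% of the members, against 12.6% of the first class (difference 2.08 points, -1.34 to 5.99) and 0.310% of the second (14.4 points, 11.3 to 18.0). The members' median GC content around the summit was 51.7%, against 43.8% in the first class, 67.7% in the second and 55.2% in the third. Between the members and the third class, the TEAD word differed by 29.2 points (22.4 to 35.6), being at 63.5% of the members and 34.3% of the class, 2 or more TEAD words by 11.1 points (7.27 to 15) and promoters by -13.8 points (-20.6 to -6.87), with 41.5% of the members and 55.3% of the class. The second and the third class were weaker at 72 h, with a median fold enrichment of 8.46 and 17.1, against 33.6 at the members. In the second class 1252 of the 1290 peaks were below 20. The shares of both classes were not compared with the members' at like levels.

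**Figure D3:**
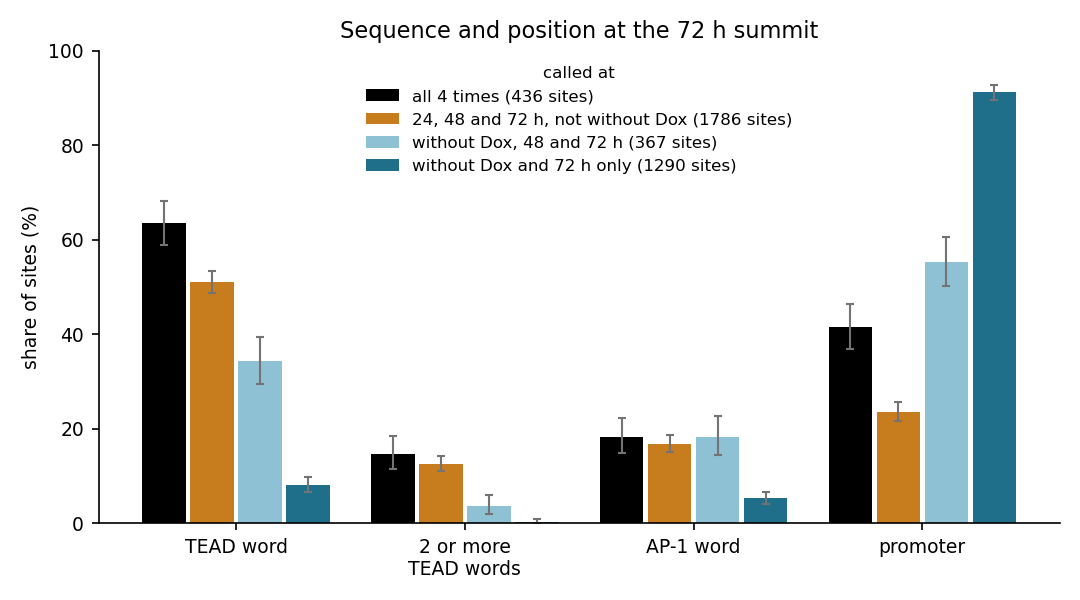
Share of sites (%) with a TEAD word, with 2 or more TEAD words, with an AP-1 word, and in promoters, for the 436 sites called at all 4 times and for 3 other classes named by the times at which they were called. Bars start at 0 and error bars are exact 95% binomial intervals. The members have the TEAD word most often (63.5%, against 51.1%, 34.3% and 8.06% from left to right), lie between the other classes in promoter share (41.5%, against 23.6%, 55.3% and 91.3%), and have the AP-1 word as often as the class called without Dox, at 48 and at 72 h (18.3% each).

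Members were also the stronger peaks, with a median fold enrichment of 33.6 at 72 h, against 21.3 in the first class, and the shares were therefore compared at like levels. At a fold enrichment of 30 to 45 at 72 h, the TEAD word was at 70.3% of 138 members and 59.3% of 312 peaks of the first class (difference 11 points, 1.32 to 19.9). In the other ranges the interval included 0, with differences of 9.10 points (-2.79 to 20.7) below 20, 1.97 (-8.05 to 11.6) from 20 to 30 and 7.36 (-5.36 to 19.9) at 45 and above. The excess of promoters held below 20 (16.5 points, 5.78 to 28.3), from 20 to 30 (17.0 points, 7.85 to 26.7) and from 30 to 45 (13.4 points, 3.97 to 23), and at 45 and above it was 5.74 points (-7.53 to 18.7). AP-1 words were found at 22.2% of the members below 20, 27.2% from 20 to 30, 17.4% from 30 to 45 and 8.04% at 45 and above, and in the first class at 20.8%, 14.5%, 13.5% and 7.92% in these ranges. In both, the share was lowest among the strongest peaks.

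Sites with more TEAD words were stronger at 72 h. The 64 sites with 2 or more words had a median fold enrichment of 7.05 without Dox, 12.4 after 24 h, 17.4 after 48 h and 47.0 after 72 h. The 213 sites with 1 word had 6, 8.69, 13.5 and 33.0 at those times, and the 159 sites without a word 5.93, 7.86, 11.8 and 28.0. The medians of the 3 groups lay closer together without Dox than at 72 h.

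Among sites with 2 or more TEAD words on 1 strand, one spacing recurred. At 10 sites 2 words followed each other on the same strand with 2 bases between them, which leaves 3 bases between the 2 CATTCC cores, and the next most frequent gap on 1 strand, 13 bases, was seen at 4 sites. The gap of 2 bases was taken because it was the most frequent at these same members, which favours their share, and was then counted in the other classes. Such pairs were at 2.29% of the members (1.11 to 4.18%) and 1.06% of the first class (0.642 to 1.66%), and these intervals overlap. They were at 0 of the 1290 peaks of the second class (upper limit 0.286%) and 0.204% of all 72 h peaks. Tandem TEAD sites are known to bind a pair of TEAD molecules side by side. The pairs lay a median of 9.50 bp from the summit and had a median fold enrichment of 42.1 at 72 h, against 6.18 without Dox, with ratios between 3.47 and 12.9. Of the 10 pairs, 8 are shown on hg38, written along the strand of the words, which are in capitals.
ITGA3, chr17:50028524-50028551, plus strand: ctcatcACATTCCgcACATTCCcagtgg
PKP4, chr2:158458185-158458212, minus strand: cctggtGCATTCCtcGCATTCCtgcaca
HOXC13, chr12:53845157-53845184, plus strand: ttccagACATTCCagGCATTCCagaaag
IGF2BP1, chr17:49022620-49022647, plus strand: cctggaACATTCCagACATTCCagacga
CCDC80, chr3:112647310-112647337, minus strand: caggcaGCATTCCtaGCATTCCtgttaa
ABHD4, chr14:22614354-22614381, plus strand: acaggaACATTCCtaACATTCCactagg
S1PR1, chr1:101200671-101200698, minus strand: atttctGCATTCCctGCATTCCtgcagt
SOBP, chr6:107601128-107601155, minus strand: gctgccGCATTCCagACATTCCtgacaa

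The strongest sites at 72 h were near genes of several kinds. The highest peak of the 72 h list, of 141, was not among the members. Their highest fold enrichment, 116, was reached 687 bp from the TSS of GNA11, a G protein alpha subunit, at a site with 9.23 without Dox, 31.9 at 24 h and 25.1 at 48 h. It was also reached 20156 bp from the TSS of NUAK2, a kinase related to AMPK, at chr1:205300566-205302674. LAMA5, a laminin chain of the basement membrane, had an intronic site of 17.5 without Dox, 35.9 after 24 h, 28.3 after 48 h and 111 after 72 h. FSCN1, which bundles actin filaments, had a promoter site of 10.1, 14.1, 27.3 and 110 at the same times. Both are shown above with 2 TEAD words each.

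The rest of the 15 strongest sites reached between 87.2 and 105 at 72 h. They were nearest to PAWR, C8orf58 (within the gene PDLIM2), FZD2, a Wnt receptor, LMNB2, a nuclear lamin, JDP2, a repressor that dimerises with AP-1 proteins, EPHA2, an ephrin receptor, SLC7A5, a transporter of large neutral amino acids, MYEOV, TEAD1, CBX7, a Polycomb protein, and the gene ENSG00000289761 (within APBB2). A TEAD word was found at 11 of the 15 and 7 were promoters. All 15 were higher at 72 h than without Dox, by 5.72 to 16.0 times. At 8 of them the 4 values were in ascending order of time, while GNA11, LAMA5, PAWR, LMNB2 and ENSG00000289761 were lower at 48 h than at 24 h, and EPHA2 and SLC7A5 were lowest at 24 h.

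The largest ratio of all, 16.0, was that of the NUAK2 site. Its fold enrichment was 7.21 (5.37 to 9.48) without Dox, 22.1 (18.8 to 25.8) after 24 h, 29.9 (26.9 to 33.2) after 48 h and 116 (108 to 123) after 72 h, so that the counting intervals of no 2 times overlapped. It came from 920 fragments at 72 h and 49 without Dox. Next were a site 14169 bp from FZD2 (ratio 15.8, with 6.38, 6.46, 19.8 and 101 over the 4 times), and sites nearest to MYEOV and USP25 (13.6 each), which lay 141668 and 687974 bp from those genes' TSSs. The 10 largest ratios, from 12.6 up, included both the TEAD1 promoter and the promoter of PKP4, a junctional plaque protein with 79.1 at 72 h and 6.14 without Dox, whose TEAD words are a tandem pair.

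**Figure D4:**
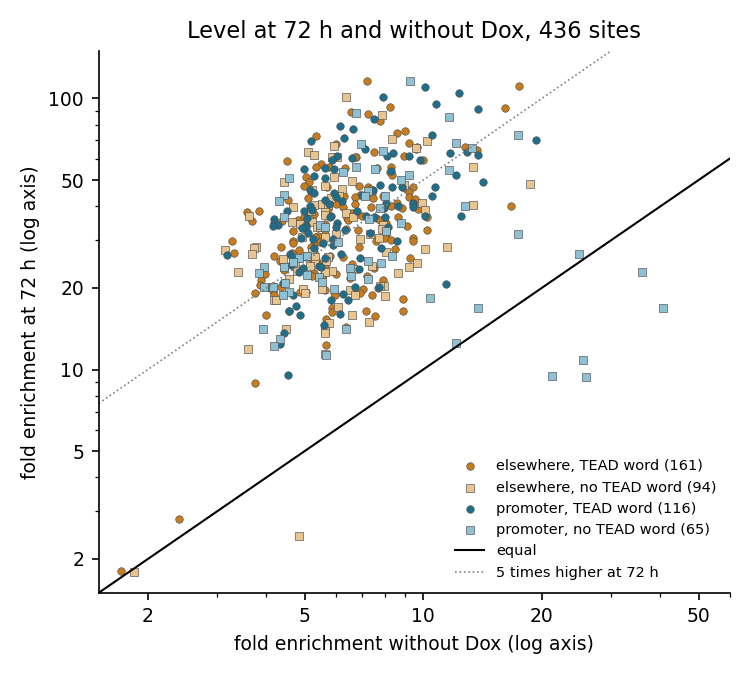
Fold enrichment at 72 h (vertical, log axis) against fold enrichment without Dox (horizontal, log axis) at the 436 sites, by promoter position and TEAD word. The solid line marks equal values and the dotted line a level 5 times higher at 72 h. Nearly all sites lie above the solid line, and the 5 points to the right below it, at 21.2 and more without Dox, are promoters without a TEAD word.

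A small group of promoters was high without Dox, lower at the times between and higher again at 72 h. They were picked by their level without Dox. Fold enrichment without Dox was at least 20 at 6 sites, and these had it at NDUFS7 (40.5), a subunit of respiratory complex I, RTTN (35.9), a centriole protein, PUS10 (25.9), a pseudouridine synthase, BANF1 (25.5), which binds DNA at the nuclear envelope, DSTYK (24.8), a protein kinase, and RBBP5 (21.2), a subunit of histone methyltransferase complexes. All 6 summits at 72 h were within 268 bp of the TSS of a protein-coding gene and had no TEAD and no AP-1 word within 100 bp. The summits without Dox lay at -218 bp from this summit at RTTN and at -216 bp at PUS10. They were thus outside the window searched and the bases shown above. At 5 of the 6, all but DSTYK, the value at 72 h was lower than without Dox.

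At NDUFS7 fold enrichment was 40.5 (34.2 to 47.6) without Dox, 10.1 (6.85 to 14.5) after 24 h, 2.94 (1.93 to 4.32) after 48 h and 16.8 (14 to 20.1) after 72 h. RTTN had 35.9 (29.5 to 43.3), 13.3 (9.56 to 18.1), 4.01 (2.67 to 5.81) and 22.9 (19.4 to 27) at these times. Both were lowest at 48 h and higher again at 72 h, and the 4 intervals were apart at RTTN, while at NDUFS7 those of 24 and 72 h overlapped. PUS10 had 25.9 without Dox, 4.6 after 24 h, 5.05 after 48 h and 9.35 after 72 h, BANF1 had 25.5, 5.39, 3.17 and 10.8, and RBBP5 had 21.2, 6.16, 5.54 and 9.45. The fragments over the summit were 121 at 72 h against 145 without Dox at NDUFS7, 144 against 107 at RTTN and 72 against 74 at PUS10, while the local background at NDUFS7 was 6.25 fragments at 72 h and 2.61 without Dox. The local background was also higher at 72 h at RTTN (5.33, against 2.01 fragments), PUS10 (6.80, against 1.9), BANF1 (6.51, against 2.37) and RBBP5 (10.2, against 6.21). Its part in the lower fold enrichment was not tested. At 48 h the summits of NDUFS7, RTTN and PUS10 held 24, 26 and 23 fragments.

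The DSTYK promoter stood as high after 72 h as without Dox within its counting intervals, with 24.8 (21.7 to 28.2) without Dox, 8.62 (6.40 to 11.4) after 24 h, 3.05 (2.23 to 4.09) after 48 h and 26.7 (23.8 to 29.8) after 72 h. The promoter of DPP9, a dipeptidyl peptidase, had a like course at a lower level, with 12.1, 5.28, 5.47 and 12.5. Both promoters and that of RBBP5 belong to the 17 sites whose ratio of 72 h to no Dox was below 2, of which 4 had a TEAD word. The 1q32 locus held promoters of this course and sites that rose at each time. The RBBP5 promoter lay 179 kb and the DSTYK promoter 89.9 kb from the NUAK2 site of 116, on the same side, and a second site near NUAK2, 2.97 kb away, had 4.34 without Dox, 7.91 after 24 h, 16.0 after 48 h and 25.2 after 72 h. Local background at these 4 sites was above the members' medians of 4.45 and 2.61 fragments in both lists, between 6.97 and 10.7 at 72 h and between 5.69 and 8.04 without Dox.

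The other 4 of the 10 sites highest without Dox were all higher at 72 h than without Dox. They were the LAMA5 site and sites at MYL12B, NUP155 and ITGB2, with 19.3, 18.7 and 17.4 without Dox at the last 3. NUP155, a nuclear pore protein, was 20393 bp from its intergenic site, which had 22.3 after 24 h, 21.6 after 48 h and 48.4 after 72 h. The ratio of 72 h to no Dox at these 4 sites ran from 2.59 at NUP155 to 6.38 at LAMA5.

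Local background exceeded 10 fragments without Dox at 4 sites, which included 3 of the 10 smallest ratios, 1 of them at the site on the alternate sequence. Their fold enrichment stayed below 5 in all 4 lists. Without them the median ratio of 72 h to no Dox was 5.23 and the share with a TEAD word 63.7%.

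Genes of the YAP/TAZ target signature, a list of 22 genes known from many cell types to respond to YAP and TAZ, were often near a site. Of the 22 genes, 14 (63.6%) were the nearest protein-coding gene to a site within 100 kb, and 8 (36.4%) had a site within 3 kb of a TSS. Among all 20007 protein-coding genes these shares were 1.76% and 0.720%. The 14 were AMOTL2, ARHGEF17, ASAP1, AXL, CCDC80, CCN1, DOCK5, LATS2, MYOF, NT5E, NUAK2, PTPN14, RBMS3 and TGFB2. The 8 others, to which no site was assigned within 100 kb, were CCN2, ANKRD1, F3, IGFBP3, CRIM1, FJX1, FOXF2 and GADD45A.

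Together the 14 genes had 22 sites, with a median fold enrichment of 6.87 without Dox, 10.5 after 24 h, 16.6 after 48 h and 43.1 after 72 h. A TEAD word was found at 19 of the 22, and the 4 values were in ascending order of time at 19. Ratios of 72 h to no Dox ran from 3.64 at LATS2 to 16.0 at NUAK2. At CCN1, a secreted matrix-associated protein also called CYR61, the promoter site had 5.22 (3.25 to 8.01) without Dox, 8.30 (6.03 to 11.1) after 24 h, 16.4 (13.2 to 20.2) after 48 h and 38.7 (34.3 to 43.7) after 72 h. A second CCN1 site 25947 bp from the TSS had 5.71, 6.86, 21.1 and 47.1. Neither of the CCN1 sites had overlapping counting intervals between 48 and 72 h, while those without Dox and at 24 h overlapped at both.

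AMOTL2, an angiomotin-like scaffold that holds YAP and TAZ at junctions, had the most sites of any gene. Its 4 sites on chromosome 3 spanned 47.4 kb. The promoter site, 47 bp from the TSS, had 8.09 without Dox, 14.2 after 24 h, 21.8 after 48 h and 61.3 after 72 h. The one in the non-coding gene LINC02004, 39760 bp away, was stronger at each time, with 8.34, 19.6, 31.9 and 70.7, and had no TEAD word. The others, 2584 and 14395 bp away, reached 47.8 and 34.0 at 72 h, against 7.76 and 4.27 without Dox. At all 4 sites the values were in ascending order of time.

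AXL, a receptor tyrosine kinase, had a promoter site of 7.11 without Dox, 10.0 after 24 h, 12.8 after 48 h and 65.1 after 72 h. Most of its gain came after 48 h, as it did at the promoter of PTPN14, a phosphatase that binds YAP, with 12.9, 15.9, 15.4 and 63.2. The promoter site at LATS2, the Hippo kinase itself, had 10.1 without Dox, 17.0 after 24 h, 19.2 after 48 h and 36.7 after 72 h. ASAP1, a regulator of ARF GTPases, had 3 sites, of 20.1 to 43.0 at 72 h. The remaining genes of the signature had 1 site each. RBMS3, an RNA-binding protein, had an intronic site of 9.20 without Dox, 15.7 after 24 h, 27.1 after 48 h and 45.1 after 72 h. CCDC80, a secreted matrix protein whose promoter site holds a tandem pair, had 5.64, 10.9, 25.5 and 42.3 over the 4 times, and its values at 48 and 72 h were thus closer than those at AXL. ARHGEF17, a guanine nucleotide exchange factor, reached 54.6 at 72 h against 11.6 without Dox, NT5E, the ecto-nucleotidase CD73, 40.8 against 6.01, and DOCK5, a RAC exchange factor, 28.2 against 6.86. At MYOF, a membrane repair protein, a site with 3 TEAD words had 6.89, 19.1, 21.2 and 47.6 over the 4 times, and at TGFB2, a TGF-beta ligand, an intronic site had 6.72, 11.7, 19.9 and 43.3.

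**Figure D5:**
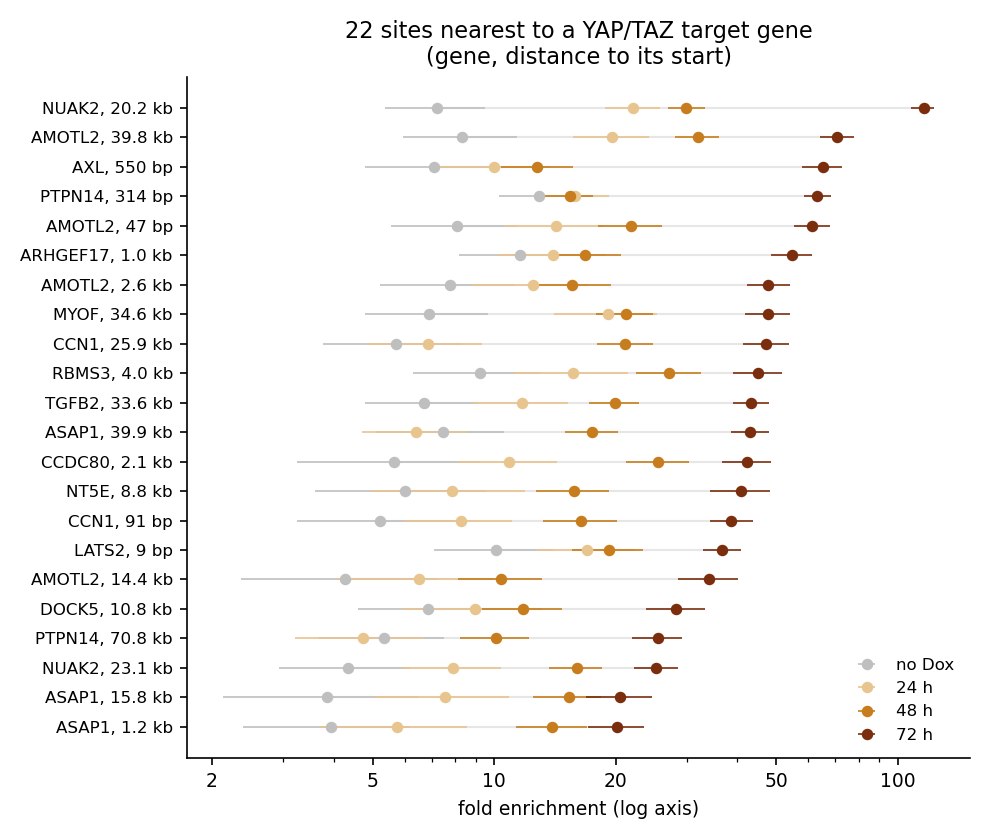
Fold enrichment (horizontal, log axis) without Dox and at 24, 48 and 72 h at the 22 sites nearest to a gene of the YAP/TAZ target signature, 1 line per site with the gene and the distance of the summit from its TSS. Bars are 95% Poisson intervals of the fragment number and cover counting error only. At 72 h the sites ran from 20.1 to 116, and without Dox from 3.85 to 12.9.

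The machinery of the pathway was itself among the genes with sites. Of 34 Hippo pathway genes 8 (23.5%) were nearest to a site within 100 kb, against 1.76% of all protein-coding genes. They were AJUBA, AMOTL2, LATS2, LIMD1, PTPN14, STK4, WWC1 and WWC2, of which AMOTL2, LATS2 and PTPN14 are also in the target signature. All 12 sites at these genes were higher at 72 h than without Dox, by 3.64 to 11.3 times, and 8 had a TEAD word. At WWC2, a scaffold that activates LATS, the promoter site with 3 TEAD words had 6.30 without Dox, 11 after 24 h, 10.6 after 48 h and 71.5 after 72 h. AJUBA and LIMD1, LIM proteins that inhibit LATS, had 12.1 and 5.72 without Dox, 20.2 and 10.3 after 24 h, 31.5 and 15.7 after 48 h and 68.4 and 40.3 after 72 h. STK4, the kinase upstream of LATS, had an intronic site of 38.5 at 72 h, against 5.18 without Dox, and WWC1, a relative of WWC2, one of 22.1 against 5.22.

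Of the 4 TEAD genes only TEAD1 had a site, 10 bp from its TSS. Its fold enrichment was 6.76 (4.72 to 9.41) without Dox, 20.1 (15.7 to 25.2) after 24 h, 26.4 (22.4 to 30.9) after 48 h and 88.6 (80.9 to 96.9) after 72 h, and all but the intervals of 24 and 48 h were apart. No TEAD word was found within 100 bp of its summit. Across all members, 28 of the 159 sites without a TEAD word had CATTCC, the 6 letters common to both TEAD words, behind another base. The TEAD1 site is among these 28 and holds CATTCC more than once. Within 100 kb, no site was assigned to any of the 10 FOS, JUN and ATF genes of the AP-1 list. With 1.76% of all protein-coding genes assigned a site, no absence can be read from a list of 10.

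Other gene lists held fewer sites, and none of their counts was tested. Their shares below are to be set beside the 1.76% of all protein-coding genes that had a site within 100 kb. Of 34 epithelial junction and adhesion genes, 3 (8.82%) had a site. Among them were ITGA3, an integrin of the laminin receptor, and LAMB3, a chain of laminin, with 82.7 and 26.6 at 72 h against 7.76 and 3.67 without Dox. Among 28 actin cytoskeleton genes, CNN2, TLN1, MYH9 and ACTN1 (14.3%) had sites of 34.0 to 52.2 at 72 h and 5.13 to 12.1 without Dox. Of 18 mammary lineage markers, the keratins KRT5 and KRT7 and the mucin MUC1 (16.7%) had promoter sites, with 34.6, 59.3 and 19.4 at 72 h against 4.18, 5.86 and 4.56 without Dox.

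Signalling genes near a site included EGFR, the receptor for EGF, which MCF10A cells need for growth. Its site, 51441 bp from the TSS, had 2 TEAD words and 8.57 without Dox, 30.9 after 24 h, 42.4 after 48 h and 74.5 after 72 h. DUSP1 and DUSP4, phosphatases that switch off MAP kinases, had promoter sites of 39.3 and 44.7 at 72 h, against 7.79 and 5.27 without Dox. In the TGF-beta list of 28 genes, 2 (7.14%) had a site. Of these, TGFBR2, a receptor, was the nearest gene to a site of 69.9 at 72 h and 10.2 without Dox, 94934 bp from its TSS. Within 100 kb, no site was assigned to any of 23 mesenchymal genes, of 37 cell cycle genes or of 65 cytosolic ribosomal protein genes. Sites farther away were not counted, and at 1.76% of all protein-coding genes such lists are too short for an absence to be read. In 3 lists a single gene had a site. It was NDUFS7 among 52 genes of the mitochondrial ribosome and respiratory chain (1.92%, near the share of all genes). SRSF3, a splicing factor, was the 1 among 35 of RNA processing (2.86%), with 19.2 at 72 h against 5.01 without Dox. RBFOX3, a neuronal RNA-binding protein, was the 1 among 20 markers of liver, neurons, blood and muscle (5.0%), with 27.2 against 8.04.

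Of the 20 genes with more than 1 site, all but AMOTL2 and ASAP1 had 2. At FZD2 the second site, 4942 bp from the TSS, had 6.27 without Dox, 9.12 after 24 h, 8.09 after 48 h and 26.1 after 72 h, and so gained less than the first, of 101. EPHA2 had its stronger site 17690 bp from the TSS, with 16.1, 10.4, 14.4 and 91.9 over the 4 times, and a promoter site of 4.42, 7.51, 8.70 and 36.4. Its stronger site was among the 91 that dipped, and 2 TEAD words stood within 100 bp of its summit.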

How the data were processed

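Chromatin from MCF10A cells with inducible TAZ-4SA was immunoprecipitated with antibodies to TAZ or IgG, and the authors aligned the reads to hg38 with BWA and called peaks with MACS2, whose versions the sources used here do not give. The deposited peak lists, 1 per TAZ library, give for each summit the fold enrichment, a ratio of pileup to local background, and −log10 p and −log10 q, all as MACS2 wrote them and with a q-value limit of 0.01. Read totals are unknown, so the fragments and the local background at each summit were solved from fold enrichment and −log10 p. This returned the deposited −log10 p within 0.003 for 100% of peaks and gives the depth behind each value.

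Peaks of the 72 h list were joined to the other lists by overlap of at least 1 bp, and the strongest overlapping peak was followed. Each site was assigned to the protein-coding gene with the nearest TSS of GENCODE v44 (within 100 kb for the gene lists), and a promoter was a summit within 3 kb of any annotated TSS. Words were searched within 100 bp of the summit and in equal windows centred 1000 bp to either side. Shares have exact (Clopper-Pearson) intervals, differences of shares Newcombe intervals, medians order-statistic intervals, and fold enrichment exact Poisson intervals, all at 95%. Peaks near each other share libraries, so the intervals describe sites and not cultures. No p-value was computed, since there was 1 library per condition.

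Genes were named by rule, as the 15 highest sites at 72 h, the 10 highest without Dox, the 10 largest and 10 smallest ratios, all sites of the YAP/TAZ target, TEAD, AP-1 and Hippo lists, up to 4 sites of each other list and the 5 genes with most sites. The members, gene lists and rules were chosen with earlier results of these data known. The intervals, overlaps, word search and fragment solution were tested on simulated data. Alternatives covered the overlap, thresholds, background, promoter width, word window and summit used. Python 3.11.15, numpy 2.4.6, pandas 2.3.3, scipy 1.17.1, pysam 0.24.0 and matplotlib 3.10.9 were used. Some items are not reported here.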

Additional observations from a re-analysis of the deposited data

How the results depend on the processing

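Among the alternatives run, the overlap rule changed the number of sites most. The median width of the followed peaks was 1620 bp at 72 h, against 600 bp without Dox, 466 bp at 24 h and 948 bp at 48 h. When at least 50% of both intervals had to overlap, 13 sites were left. Of these, 10 were at least 2-fold higher at 72 h than without Dox, with median ratios of 3.63 (72 h to no Dox), 1.57 (24 h to no Dox), 1.21 (48 to 24 h) and 1.76 (72 to 48 h). Promoters were 23.1%, TEAD words 69.2% and AP-1 words 7.69% of them, and the difference in TEAD share from the class of the 3 Dox times was 16.3 points (-11.4 to 35.6). Summits within 200 bp kept 378 sites, −log10 q of at least 5 kept 359 and a fold enrichment of at least 5 kept 317. Without the 1 fragment added to pileup and background, the median ratios were 4.82 (72 h to no Dox), 1.21 (48 to 24 h) and 2.64 (72 to 48 h), and 27.3% of sites dipped at 24 or 48 h. Over the genome-wide background they were 5.95, 1.53 (24 h to no Dox) and 2.83 (72 to 48 h). Promoters were 24.3% within 1 kb and 29.4% with protein-coding starts only. Within 50 bp of the summit 51.8% had a TEAD word and 11.5% an AP-1 word. At the summit without Dox 52.1% had a TEAD word, and the difference from the class of the 3 Dox times, at its 72 h summits, was 1.0 points (-4.23 to 6.20). With CATTCC as the word, an alternative chosen after seeing the data, the share was 70.0%. Of 86 alternative values 62 stayed within the limits set and 22 moved beyond them. The other 2, both of the difference in TEAD share, had intervals that then included 0. A change of direction was looked for only in the median ratios and the differences of shares, and none was seen there. The causes of these shifts, the width of the peaks included, were not tested. No paired analysis was possible because each condition had 1 TAZ library.

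With 1 library per condition, none of the differences between times has a replicate check, and without Dox the values rest on a median of 22 fragments.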

Other observations

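The word CTACAACTC, seen at RTTN and PUS10 and then counted, was at 2 of the 436 sites (0.459%), against 31 of the 1290 peaks called without Dox and at 72 h only (2.4%), 3 of the 1786 peaks of the 3 Dox times (0.168%) and 201 of all 72 h peaks (0.520%). In the list without Dox it was at 21 of 2420 peaks on the main chromosomes (0.868%). The 2 members that hold it are the promoters from which the word was taken. They were looked at because fold enrichment was lower at 72 h than without Dox. Their course therefore says nothing about the word.

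Of the 20 genes with more than 1 site, ITGB2, an integrin chain of leukocytes, had a promoter site that was already high without Dox. Its fold enrichment was 17.4 (13.5 to 22.1) without Dox, 21.6 (17.5 to 26.5) after 24 h, 40.2 (35.4 to 45.6) after 48 h and 73.6 (67.5 to 80.1) after 72 h, and no TEAD or AP-1 word was found at its summit. MYL12B, a myosin regulatory light chain, had 19.3 without Dox, 18.7 after 24 h, 26.5 after 48 h and 70.0 after 72 h at its promoter, with 1 TEAD word.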
